A study of Mus musculus with 69 samples.

Results

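WT cells were compared between mouse embryonic stem (mES) cells at 0 h and mosaic gastruloids at 48 h. Gastruloids are aggregates of mES cells that reproduce parts of early embryonic patterning in culture. The members are 12 of the 69 libraries of the series: 3 libraries each of the clones WT-mCherry and WT-emiRFP at 0 h, and 3 libraries each of the same clones sorted from WT+WT gastruloids at 48 h. Libraries were chosen by clone, gastruloid type and time in the labels, and no measured value was used to choose them. All genes of the count table were examined.

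All 12 libraries derive from E14Tg2A, a mouse ES cell line in wide use, and are WT for Trp53. WT-mCherry carries H2B-mCherry driven by the EF1α promoter, and WT-emiRFP carries H2B-emiRFP670 driven by the CAG promoter. Each transgene was inserted with piggyBac, and each line is 1 clone, so clone and reporter cannot be told apart. The 0 h cells were grown on gelatin in medium with serum and the cytokine LIF. For gastruloids, cells of both clones were mixed in equal number and left in serum-free N2B27 medium until 48 h, when the Wnt agonist ChIR was added. The 48 h samples therefore differ from the 0 h samples in time, medium, LIF, aggregation, contact with the other clone and sorting. The labels give sorting for the 48 h libraries alone. Dissociation may differ too, since the paper gives Accutase for gastruloids and trypsin for passaging mES cells. These differences cannot be told apart. Many gastruloids were pooled per library, and cells were sorted by their fluorescent protein. WT-mCherry and WT-emiRFP libraries of one replicate number at 48 h came from the same gastruloids, so the 6 libraries are 3 independent samples with a library of each clone.

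Mouse ES cells kept in serum with LIF are a mixture around the naive state, which resembles the epiblast before implantation. LIF acts through STAT3, and BMP signals from serum induce Id proteins, both of which hold back differentiation. When these signals are removed, FGF signalling through ERK drives cells into a formative state, in which the naive factors are switched off while Pou5f1 is kept, and Otx2, Fgf5 and the de novo DNA methyltransferases are switched on. Primitive streak genes such as T come later, when Wnt and Nodal signals rise.

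The total counts ranged from 26722541 to 72981570 with a median of 51404821, and the second lowest total was 46751203. Mitochondrially encoded genes took 1.235% to 1.769% of the counts at 0 h and 1.255% to 1.461% at 48 h. The library with the lowest total was WT-mCherry replicate 3 at 0 h. WT-emiRFP replicate 1 at 0 h stood apart by transcript length, measured against the mean of the other 2 libraries of its group. Its genes longer than 8000 bases were lower, relative to those shorter than 2000 bases, by 0.59 on the log2 scale. The other 11 libraries ranged from -0.13 to 0.40. Values within a group depend on each other, and 0.17 and 0.40 were those of WT-emiRFP replicates 2 and 3 at 0 h. WT-mCherry replicate 2 at 0 h stood apart by streak genes that are described with their lists. Values below are normalized counts, which are counts divided by a size factor for depth. They are given as the median of the 6 libraries of a time point with the lowest and highest in parentheses. Changes are log2 fold changes of 48 h over 0 h with their standard error, from edgeR's quasi-likelihood test with the clone as a covariate and Benjamini-Hochberg adjustment over all genes tested.

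Of 55367 gene symbols, 35918 had a count in any of the 12 libraries and 18525 passed the filter on low counts. Among the latter, 5884 (31.8%) were higher at 48 h and 6578 (35.5%) were lower at an adjusted p below 0.05. The median log2 fold change of all genes tested was -0.03. Changes of at least 2-fold were found for 1796 genes that were higher and 2941 that were lower, of at least 8-fold for 199 and 529, and of at least 32-fold for 17 and 104. When the test asked for a change beyond 2-fold, 1215 genes were higher and 2156 were lower. The 6 libraries of one time point lay wholly above the 6 of the other for 3902 genes (21.1%) that were higher at 48 h and 4349 (23.5%) that were lower. With 67.3% of genes called, the gene lists below are read against 31.8% higher and 35.5% lower and by the size of their changes. In bulk samples, fewer cells with a gene's RNA and less RNA per cell cannot be told apart.

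Genes of naive pluripotency fell together. All 22 tested members of the list were lower at 48 h, 21 of them by at least 2-fold, with a median log2 fold change of -3.38. Klf4, a factor of the naive network, had a normalized count of 10928 (9558 to 11918) at 0 h and 168 (139 to 208) at 48 h (log2 fold change -6.00 ± 0.10, adjusted p = 1.3e-16). Tfcp2l1, which acts with Esrrb and Klf4, was at 30100 (22697 to 32177) at 0 h and 886 (770.3 to 1184) at 48 h (-4.99 ± 0.12, adjusted p = 5.6e-15). Prdm14, which represses FGF receptor and methyltransferase genes, was at 1728 (1629 to 1879) at 0 h and 29.97 (16.2 to 47.3) at 48 h (-5.81 ± 0.18, adjusted p = 1.1e-13). In none of these genes did the 0 h and 48 h libraries overlap. Nanog was at 39539 (37562 to 44064) at 0 h and 3768 (3109.5 to 4532) at 48 h, Zfp42 at 51138 (49405 to 52749) at 0 h and 3574 (2665 to 4308) at 48 h, and Tbx3 at 9071 (6895 to 11625) at 0 h and 420.4 (335 to 447) at 48 h. Esrrb, a nuclear receptor of the same network, was at 50155 (43564 to 54215) at 0 h and 3183 (2316 to 3958) at 48 h (-4.00 ± 0.13, adjusted p = 1.7e-13). Dppa5a (-1.79 ± 0.10), an RNA-binding protein, and Mybl2 (-1.44 ± 0.07), a cell cycle transcription factor, fell less than these, and the smallest change in the list was that of the ligand gene Fgf4 (-0.82 ± 0.08).

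Genes of core pluripotency moved in both directions. Of 13 tested members, 3 were higher and 6 were lower, with a median of -0.20. Pou5f1, the POU factor that both naive and formative cells need, was at 33951 (29637 to 37569) at 0 h and 31264 (28615 to 34978) at 48 h, and its log2 fold change of -0.12 ± 0.06 did not pass the test (adjusted p = 0.11). Its partner Sox2 was at 24615 (23588 to 29213) at 0 h and 8162 (7815 to 9206) at 48 h (-1.61 ± 0.06, adjusted p = 2.1e-12), and the libraries of the time points did not overlap. Sall4 fell less, with a log2 fold change of -0.45 ± 0.05. Tdgf1, the Nodal coreceptor Cripto, was at 46031 (37497 to 51169) at 0 h and 5839 (5440.2 to 6299) at 48 h (-2.96 ± 0.07, adjusted p = 1.0e-14). The RNA-binding protein Lin28a, which blocks let-7 maturation, rose from 23221 (20574 to 26657) to 42969 (37617 to 43728) (0.83 ± 0.06, adjusted p = 7.8e-09), and its paralog Lin28b rose from 1165 (942 to 1496) to 4609 (4039 to 5387) (1.96 ± 0.10, adjusted p = 6.1e-11). Of 26 formative and primed genes, 21 rose, 19 by at least 2-fold, and 4 fell, with a median of 1.83. Fgf5, the classical epiblast growth factor gene, was at 75.2 (36.4 to 102) at 0 h and 4108 (3802 to 4498) at 48 h (5.88 ± 0.16, adjusted p = 2.7e-14). The POU factor gene Pou3f1 was at 404 (325 to 510.0) at 0 h and 9739 (9092 to 10738) at 48 h (4.62 ± 0.12, adjusted p = 9.7e-15), Otx2, the homeobox factor of the anterior epiblast, at 478 (369 to 618) at 0 h and 6044 (5477 to 6564) at 48 h (3.65 ± 0.09, adjusted p = 1.3e-14), and Sox3 at 117 (79.4 to 156) at 0 h and 1976 (1784 to 2211) at 48 h (4.16 ± 0.13, adjusted p = 1.4e-13). Every 48 h library exceeded every 0 h library for each of these genes. The zinc finger gene Sall2 was at 212 (164 to 299) at 0 h and 4693 (4393 to 5327) at 48 h. The plot of key genes by library shows these levels.

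**Figure D1:**
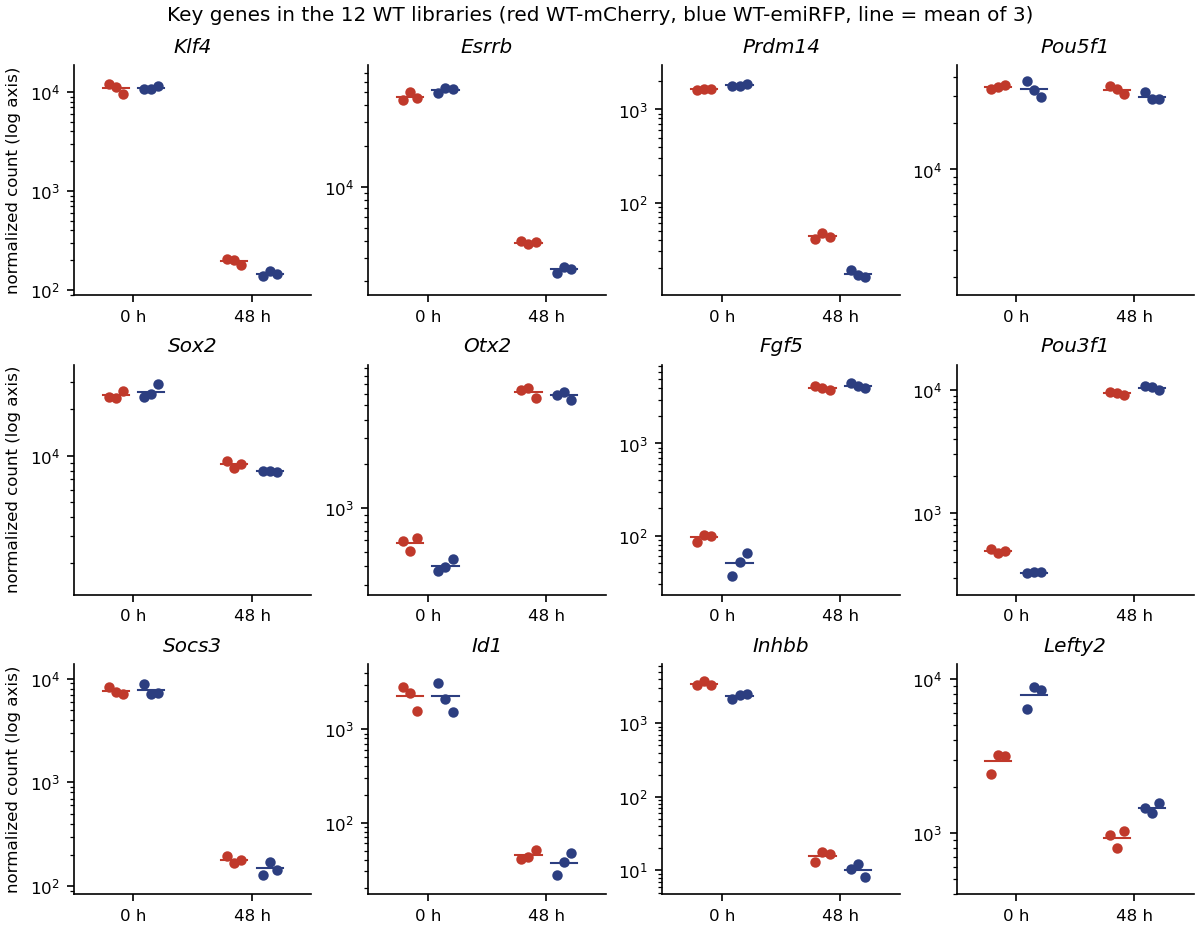
Normalized counts (log axis) of 12 genes in each WT library at 0 h and 48 h, with WT-mCherry libraries in red, WT-emiRFP libraries in blue and lines at the mean of 3. Klf4, Esrrb, Prdm14, Socs3, Id1 and Inhbb lay lower at 48 h in every library, Otx2, Fgf5 and Pou3f1 lay higher, and the Pou5f1 libraries of the time points overlapped.

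Genes of LIF and STAT3 signalling mostly fell. Of 15 tested LIF and STAT3 genes, 12 were lower and 1 was higher, with a median of -2.13. Socs3, the feedback inhibitor that STAT3 induces, was at 7273 (7112 to 8906) at 0 h and 169 (129.6 to 196) at 48 h (-5.55 ± 0.10, adjusted p = 3.7e-16). The cofactor gene Bcl3 was at 2342 (2012 to 3197) at 0 h and 20.3 (12.9 to 25.4) at 48 h (-6.98 ± 0.11, adjusted p = 6.3e-17), and the kinase gene Pim3 at 13956 (12421 to 17638) at 0 h and 2282 (2099 to 2369) at 48 h (-2.67 ± 0.08, adjusted p = 3.4e-14). The libraries of the time points did not overlap in these genes. The signalling receptor Il6st, also called gp130, fell with a log2 fold change of -1.49 ± 0.11. In the BMP list 7 of 20 tested genes rose and 11 fell, with a median of -1.38. Id1, a target that binds and blocks bHLH factors, was at 2292 (1545 to 3143) at 0 h and 41.8 (27.1 to 51.2) at 48 h (-5.79 ± 0.21, adjusted p = 8.1e-13), the ligand gene Bmp4 at 947 (616 to 1093) at 0 h and 122 (108 to 145) at 48 h (-2.83 ± 0.12, adjusted p = 3.5e-12), and the inhibitory Smad gene Smad6 at 582 (492 to 785) at 0 h and 91.7 (81.3 to 109) at 48 h (-2.72 ± 0.13, adjusted p = 2.0e-11). The receptor Bmpr1a rose, with a log2 fold change of 0.41 ± 0.08, as did its effector Smad5 (0.32 ± 0.07).

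FGF, Nodal and Wnt genes moved in both directions. For FGF and ERK signalling 9 of 19 tested genes were higher and 8 lower. Apart from Fgf5, the ERK phosphatase gene Dusp4 rose, from 974 (781 to 1046) to 6377 (5980.0 to 6530.2) (2.74 ± 0.07, adjusted p = 6.8e-15). Fgf4, the ligand that naive cells make, fell from 11351 (9476 to 13157) to 6327 (5692 to 7151) (-0.82 ± 0.08, adjusted p = 1.1e-07), whereas the ERK target Etv5 rose by 0.17 ± 0.05, a call that was lost without replicate 1 or replicate 3. In the Nodal and Activin list 7 of 18 rose and 9 fell. Inhbb, a subunit of Activin, showed the deepest fall named here, from 2888 (2164 to 3724) to 12.5 (8.08 to 18.0) (-7.77 ± 0.10, adjusted p = 1.1e-17). The Nodal inhibitor Lefty2 fell with a log2 fold change of -2.06 ± 0.14, and the convertase Pcsk6, which processes Nodal, with -2.15 ± 0.06. In Wnt signalling 12 of 21 tested genes rose and 7 fell. The nuclear factor Lef1 rose from 941 (826 to 1017) to 4619 (4110.3 to 5274) (2.34 ± 0.06, adjusted p = 1.1e-14), the receptor Fzd7 from 4749.9 (4405 to 5699) to 16161 (15566 to 17218) (1.71 ± 0.07, adjusted p = 1.4e-12), and Tcf7 by a log2 fold change of 1.30 ± 0.06. The ligand gene Wnt8a rose (1.79 ± 0.20), while Notum, a secreted enzyme that inactivates Wnt, fell from 2015 (1509.7 to 2570.2) to 114 (65.8 to 176) (-4.17 ± 0.18, adjusted p = 4.9e-12) and Porcn, which acylates Wnt for secretion, fell (-3.77 ± 0.10).

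Markers of later and of other cell types were counted with the same test. Of 17 primitive streak and early mesoderm genes, 7 were higher and 7 lower, and their summed level was 24.4 to 45.9 CPM (counts scaled to a common library size) at 0 h and 27.5 to 35.8 at 48 h. The streak gene Eomes was at 232 (159.5 to 277) at 0 h and 370.0 (349.7 to 424) at 48 h (0.78 ± 0.12, adjusted p = 2.6e-05). T, chosen after its values were seen, was at 45.7 (37.7 to 286) at 0 h and 56.3 (46.4 to 68.1) at 48 h, and the highest 0 h value belonged to WT-mCherry replicate 2, whose Nkx1-2, likewise chosen after its values were seen, was at 204 against 0.898 to 8.27 in the other 5 libraries at 0 h and 103 to 160.5 at 48 h. Without that library the 0 h sums were 24.4 to 33.8 CPM, 8 members of the list were higher and 7 lower, and the log2 fold change of T was 0.38 (adjusted p = 0.051 by edgeR). The log2 fold change of T was -0.44 ± 0.42 over all 12 libraries (adjusted p = 0.36), -0.45 without the filter on low counts (adjusted p = 0.024) and 0.55 without replicate 2 of every group (adjusted p = 0.024). Mesp1 did not pass the filter, with 27 counts in all at 0 h and 17 at 48 h.

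Neural genes moved in both directions, 5 of 12 higher and 6 lower, with a summed level of 164 to 224 CPM at 0 h and 108 to 125 at 48 h. Their log2 fold changes ranged from -3.08 to 4.86, beyond those of the members named here. At least 2-fold changes were called for 4 that rose and 5 that fell. Nes, an intermediate filament gene also active in the epiblast, rose with a log2 fold change of 2.27 ± 0.10, while Pax6 (-2.17 ± 0.19, adjusted p = 4.1e-08) and Sox1 (-0.88 ± 0.12, adjusted p = 8.6e-06) fell. Markers of primitive endoderm mostly fell: 11 of 15 were lower and 0 were higher, and their sum was 402 to 514 CPM at 0 h and 116 to 149 at 48 h. Lama1, Col4a1 and Col4a2 of this list are also counted with the basement membrane genes below. Values of its defining markers Gata4, Gata6 and Sox7 are not given here, so no loss of such cells is read from the list. Lama1, a laminin of basement membrane, was at 7989.8 (7610.3 to 8600.4) at 0 h and 489.6 (362 to 662) at 48 h (-4.03 ± 0.11, adjusted p = 2.2e-14), and the growth factor receptor gene Pdgfra at 233 (142 to 329) at 0 h and 58.1 (42.7 to 82.2) at 48 h (-1.95 ± 0.13, adjusted p = 7.6e-10). Of 12 trophoblast genes 10 fell and 0 rose, with sums of 204 to 314 and 112 to 129 CPM. The change of 3 of them differed between the clones, with list medians of -1.52 in WT-mCherry and -0.48 in WT-emiRFP. Tfap2c, also a factor of naive cells, was at 4785 (4368 to 5288) at 0 h and 328 (247 to 452) at 48 h (-3.81 ± 0.12, adjusted p = 7.6e-14). Tpbpa, a trophoblast marker, was at 0 in all 12 libraries. Of 7 fibroblast genes 4 were higher and 2 lower, with sums of 11.2 to 15.9 and 24.1 to 31.9 CPM. Their log2 fold changes ranged from -1.085 to 4.24, and at least 2-fold changes were called for 2 that rose and 1 that fell. Here 2 of the 7 differed between the clones, against 2.57% of all genes, with medians of -0.005 in WT-mCherry and 1.74 in WT-emiRFP. These differences between the clones were not called without replicate 2. Thy1, also a gene of mES cells, was at 200.04 (176 to 225) at 0 h and 1077 (963 to 1193) at 48 h (2.42 ± 0.09, adjusted p = 8.7e-13), and Fap was at 0 in all 12 libraries. Definitive endoderm and notochord genes were 2 of 8 higher and 4 lower, with sums of 175 to 268 and 266 to 288 CPM. The sum was mainly that of the claudin gene Cldn6, at 1334 (1157 to 1705) at 0 h and 6418 (5897 to 6513) at 48 h, and of Trh, at 10876 (7378 to 13282) at 0 h and 9133 (8369 to 9490.3) at 48 h. The part of other cell types in the changes of the other lists was not tested.

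Enzymes of DNA methylation changed in opposite directions. The de novo methyltransferase gene Dnmt3b was at 17622 (15228 to 19781) at 0 h and 188940 (181510 to 196890) at 48 h (3.43 ± 0.07, adjusted p = 6.6e-16) and Dnmt3a at 5519 (5279.6 to 5759.5) at 0 h and 32496 (30085 to 32808) at 48 h (2.54 ± 0.05, adjusted p = 6.7e-16). Their cofactor Dnmt3l fell from 28527 (24667 to 34868) to 7346 (6596 to 8486) (-1.98 ± 0.08, adjusted p = 3.5e-12), and Tet2, which oxidizes methylated cytosine, from 10214 (4749.9 to 11837) to 444.4 (298 to 599) (-4.46 ± 0.16, adjusted p = 6.2e-13). The lowest 0 h value of Tet2 was that of WT-emiRFP replicate 1, the library that stood apart by transcript length. Uhrf1, which targets maintenance methylation, changed by 0.32 ± 0.06. Over the 14 tested genes of this list 6 rose and 6 fell. Among germline genes that are methylated in the epiblast, 12 of 20 fell and 3 rose, with a median of -0.81. Dazl, an RNA-binding protein of germ cells, was at 1048 (444.3 to 1748) at 0 h and 471 (345 to 577) at 48 h (-1.08 ± 0.15, adjusted p = 8.3e-06), and the meiotic gene Hormad1 at 1654 (1559.9 to 2167) at 0 h and 892 (569 to 1253) at 48 h (-0.998 ± 0.13, adjusted p = 3.3e-06). Genes of rare 2-cell-like cells fell in all 17 tested members, with a median of -2.04. Zscan4c was at 2617 (1168 to 4306) at 0 h and 471 (241 to 784) at 48 h (-2.44 ± 0.14, adjusted p = 1.8e-10); Zscan4 copies share near-identical sequence and how reads were split among them is uncertain. Eif1a, the smallest change among the named members, was at -0.43 ± 0.06.

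Among 24 imprinted genes 12 were higher and 10 lower. The maternally expressed noncoding RNAs Rian and Mirg of the Dlk1-Dio3 region rose, with log2 fold changes of 1.74 ± 0.06 and 1.84 ± 0.08, and Magel2 rose by 2.81 ± 0.24. H19, a maternally expressed noncoding RNA, fell by 14.7-fold (-3.88 ± 0.13, adjusted p = 2.6e-13), and Peg10 fell from 23239 (16263 to 28852) to 6398 (5841 to 6883) (-1.83 ± 0.07, adjusted p = 1.7e-12).

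Sterol genes rose almost as a block. Of 25 tested genes of cholesterol synthesis and uptake, 24 rose and 1 fell, with a median of 1.20. Hmgcs1, the enzyme that forms HMG-CoA, was at 6930.3 (5748 to 7654) at 0 h and 20821 (19430 to 22669) at 48 h (1.60 ± 0.07, adjusted p = 2.6e-12). Sqle, which makes squalene epoxide, was at 5362 (4618 to 6007) at 0 h and 14481 (13184 to 15100) at 48 h (1.43 ± 0.06, adjusted p = 5.6e-12). In both genes the 48 h libraries lay above the 0 h libraries. Lss, which closes the sterol ring, was at 3598 (3168 to 4367) at 0 h and 12524 (11698 to 13246) at 48 h (1.78 ± 0.06, adjusted p = 1.4e-13). Srebf2, the factor that drives these genes, rose with a log2 fold change of 0.79 ± 0.06. Fdps was at 101 (84.4 to 130.2) at 0 h and 343 (310.1 to 373) at 48 h, a level that may be split with near-identical copies and is uncertain. Ebp, the exception of the list and chosen after its values were seen, was at 1067 (989 to 1126) at 0 h and 515 (443 to 545) at 48 h (-1.05 ± 0.07, adjusted p = 8.5e-10).

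Promoters of 250 bases before to 50 after the start were searched for the letters TCACNCCAC, a form of the sterol response element, on both strands. They stood in 1 of 17 listed sterol genes with a RefSeq promoter (5.88%), in 0 of 12 promoters of the fatty acid list and in 388 of 27025 promoters in all (1.44%). The gene with a match was Hmgcs1, and its sequence is shown because the gene rose. The window is at chr13:119690184-119690252, plus strand, GRCm38.p6, and the capitals mark the match, which starts 137 bases before the start of the gene.
Hmgcs1: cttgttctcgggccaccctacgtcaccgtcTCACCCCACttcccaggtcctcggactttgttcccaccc
The promoters of the members with none in that table, Fdft1, Fdps, Sqle and Stard4 among them, were not used here. A match is a description of the letters and was not tested for binding.

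Fatty acid genes also rose, in 13 of 15 tested members, with 2 lower and a median of 0.53. The desaturase gene Fads2 was at 2625 (2239 to 2715) at 0 h and 17696 (17158 to 18695) at 48 h (2.81 ± 0.06, adjusted p = 1.1e-15) and Scd1 at 3177 (2208 to 4449.9) at 0 h and 17636 (16888 to 19304) at 48 h (2.41 ± 0.11, adjusted p = 1.0e-11). Scd2 rose with a log2 fold change of 1.82 ± 0.09 and Fasn, the fatty acid synthase, with 1.40 ± 0.07. The plot of lipid genes gives the values of single members. Targets of the sterol sensor LXR were 4 higher and 3 lower of 10: Abca1, which exports cholesterol, fell from 1589.5 (1435 to 3132) to 125 (111 to 163) (-3.90 ± 0.19, adjusted p = 2.4e-11), whereas Abcg1 rose (1.71 ± 0.06, adjusted p = 2.4e-13) and Apoe fell (-1.14 ± 0.14, adjusted p = 1.7e-06).

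**Figure D2:**
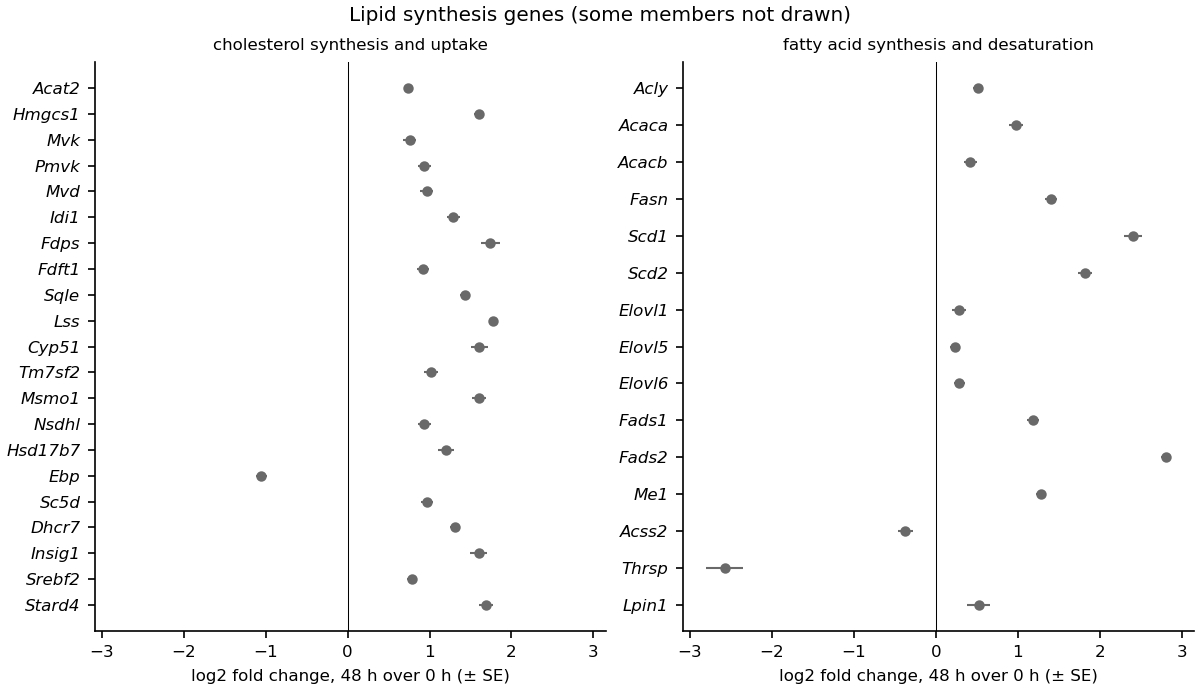
Log2 fold change of 48 h over 0 h, with standard error, for tested genes of the cholesterol (left, some members not drawn) and fatty acid (right) lists. Of the cholesterol genes drawn, Ebp lay to the left of 0 and the others to the right, and of the fatty acid genes 13 lay to the right and Acss2 and Thrsp to the left.

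Genes of glycolysis and the hypoxia response fell more often than they rose. Of 22 glycolysis genes 11 were lower and 3 higher. Slc2a3, a glucose transporter, was at 65913 (63941 to 71485) at 0 h and 8208 (6691 to 9954) at 48 h (-3.03 ± 0.08, adjusted p = 1.3e-14), Pfkp, a phosphofructokinase, at 19556 (13612 to 26590) at 0 h and 3858 (3368 to 4040.4) at 48 h (-2.41 ± 0.13, adjusted p = 9.6e-11) and Hk2, a hexokinase, at 22246 (21191 to 24724) at 0 h and 9049 (8239 to 10279) at 48 h (-1.32 ± 0.06, adjusted p = 2.3e-11). Pfkm, another phosphofructokinase subunit, rose (1.54 ± 0.06). The enzyme Pkm did not pass the test (-0.07 ± 0.06). Of 17 hypoxia response genes 11 were lower and 4 higher. Ndrg1 fell from 1132 (888 to 1478) to 185 (166 to 215) (-2.60 ± 0.11, adjusted p = 4.8e-12), and the histone demethylase Kdm3a fell (-1.88 ± 0.06). Nuclear subunits of oxidative phosphorylation were lower in 17 of 44 and higher in 2, and the fall of Cox4i1 was -0.49 ± 0.08. Among 12 mitochondrially encoded subunits 6 were lower and 1 higher. Amino acid genes were higher in 10 of 22 and lower in 4, but the change differed between the clones in 8 of the 22 against 2.57% of all genes, with medians of 0.44 in WT-mCherry and -0.04 in WT-emiRFP, and without replicate 2 no gene was called in that test. Asns, the asparagine synthetase, fell from 20528 (18386 to 22369) to 10599 (9838 to 11419) (-0.95 ± 0.05, adjusted p = 4.8e-11), while the cystine transporter Slc7a11 rose (1.28 ± 0.12, adjusted p = 6.6e-08). Metallothionein and antioxidant genes were 12 higher and 5 lower of 20. Gclm, a subunit for glutathione synthesis, rose (1.73 ± 0.05, adjusted p = 3.1e-14), and Gpx4, which reduces lipid peroxides, was at 33353 (30336 to 45242) at 0 h and 9384 (8448 to 10726) at 48 h (-1.85 ± 0.10, adjusted p = 4.7e-11).

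Genes of the adhesion and polarity lists rose more often than they fell, and genes of the matrix mostly fell. The adhesion list is not of epithelial genes alone, since it also holds Cdh2, Vim, Zeb1, Zeb2, Snai1, Snai2 and Twist1. Of 20 cadherin and adhesion genes 13 rose and 5 fell. Cdh1, which encodes E-cadherin, was at 21678 (19710 to 22717) at 0 h and 46459 (42454 to 47606) at 48 h (1.10 ± 0.05, adjusted p = 8.9e-12), and Cdh2, which encodes N-cadherin, at 199 (146 to 262) at 0 h and 458 (391 to 542) at 48 h (1.20 ± 0.12, adjusted p = 2.9e-07). The claudins Cldn6 and Cldn7 rose with log2 fold changes of 2.16 ± 0.09 and 2.697 ± 0.08. Vim, an intermediate filament of mesenchymal cells, was at 7959.8 (5888 to 9756) at 0 h and 1630.4 (1439 to 1822) at 48 h (-2.28 ± 0.10, adjusted p = 4.4e-12), and Zeb1, which represses Cdh1, at 981 (645 to 1055) at 0 h and 84.8 (65.2 to 129) at 48 h (-3.38 ± 0.13, adjusted p = 1.8e-12). Of 15 polarity and lumen genes 9 rose and 2 fell: Podxl, an apical glycoprotein, was at 1924 (1732 to 2243) at 0 h and 11801 (11443 to 12433) at 48 h (2.60 ± 0.07, adjusted p = 1.1e-14) and Prom1, a protein of apical protrusions, at 296 (208 to 356) at 0 h and 2472 (2266 to 2609) at 48 h (3.10 ± 0.09, adjusted p = 6.0e-14). Integrin and basement membrane genes fell in 15 of 21 and rose in 0. Nid1, nidogen, was at 13388 (12225 to 20751) at 0 h and 465 (398 to 539) at 48 h (-5.05 ± 0.15, adjusted p = 5.2e-14), Itga5 fell by a log2 fold change of -2.19 ± 0.07 and fibronectin, Fn1, by -1.10 ± 0.12. Among serum response and YAP targets 12 of 20 fell and 3 rose, with Ccn1 at -1.92 ± 0.13. Immediate early genes, which dissociation can induce, were 6 higher and 7 lower of 21. Among them Ier5 rose (3.25 ± 0.09, adjusted p = 3.4e-14) and Nr4a1 fell (-1.44 ± 0.09, adjusted p = 2.5e-10), and Junb, also a STAT3 target, fell (-2.73 ± 0.13).

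Growth genes moved by small amounts. Of 40 ribosome biogenesis and Myc genes 21 rose and 4 fell, with a median of 0.15. Myc itself fell (-0.77 ± 0.07, adjusted p = 3.3e-08) and Mycn rose (0.26 ± 0.07, adjusted p = 0.0025). The letters CACGTG, an E-box that Myc and Max bind, stood in 8 of 33 promoters of the list (24.2%), which has 40 members, and in 2187 of 27025 promoters in all (8.09%). Of the genes that held them, Nop2, Utp20 and Tsr1 rose (the call of Utp20 was lost without replicate 3), Max fell (-0.26 ± 0.05), and Ltv1, Pes1, Mybbp1a and Wdr43 did not pass the test. Nop2 encodes a methyltransferase of ribosomal RNA, and its sequence is shown as an example of an E-box upstream of the start. It is at chr6:125131793-125131858, plus strand, GRCm38.p6, with the E-box in capitals, 60 bases before the start.
Nop2: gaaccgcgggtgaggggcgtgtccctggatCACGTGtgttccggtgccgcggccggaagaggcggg
Nop2 was at 14442 (12870 to 15433) at 0 h and 17821 (16140 to 19296) at 48 h (0.30 ± 0.05, adjusted p = 7.9e-05). Cytosolic ribosomal protein genes changed little: 2 of 50 were higher and 2 lower.

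DNA replication genes were higher in 21 of 38 and lower in 5, while G2/M genes were lower in 16 of 36 and higher in 1, with medians of 0.15 and -0.11. E2f2, a factor of the G1/S transition, fell (-1.48 ± 0.10, adjusted p = 2.0e-09), and Slbp, which binds histone mRNA, rose (0.67 ± 0.05, adjusted p = 3.7e-09). Hmmr, a spindle protein, fell from 11719 (9719 to 14406) to 5884 (5229.5 to 6553) (-0.997 ± 0.06, adjusted p = 6.4e-10). Cyclin D genes went apart: Ccnd1 was at 3794 (2594 to 5377) at 0 h and 9139 (7216 to 11216) at 48 h (1.23 ± 0.08, adjusted p = 9.0e-10) and Ccnd3 at 9727 (7827 to 10241) at 0 h and 2726 (2319 to 3032) at 48 h (-1.82 ± 0.07, adjusted p = 1.5e-12). Of 30 p53 targets 11 were higher and 7 lower. Trp53 fell from 24422 (20697 to 27511) to 16401 (15255 to 17164) (-0.57 ± 0.06, adjusted p = 5.7e-07). The apoptosis gene Pmaip1, also called Noxa, rose from 1053 (604 to 1615) to 7653 (6347 to 8715) (2.87 ± 0.13, adjusted p = 7.4e-12), Cdkn1a, the p21 inhibitor, rose (0.47 ± 0.10, adjusted p = 3.9e-04), Bbc3 did not pass the test (0.22 ± 0.14) but did without replicate 1 or without the filter, and Perp fell (-1.27 ± 0.14, adjusted p = 7.5e-07). In the Bcl2 family 6 of 15 were higher and 3 lower. Mcl1, a survival gene, fell from 29548 (27020 to 30135) to 14742 (13694 to 15619) (-0.99 ± 0.05, adjusted p = 4.3e-11). In the autophagy and lysosome list 17 of 24 fell and 5 rose, with Tfeb, the factor of lysosome genes, at 2324 (1710.3 to 3393) at 0 h and 341 (319 to 369.9) at 48 h (-2.81 ± 0.12, adjusted p = 4.0e-12). Interferon and MHC genes were 10 higher and 7 lower of 20: Ifitm1 fell (-2.71 ± 0.13, adjusted p = 2.8e-11) and Bst2 rose (1.57 ± 0.08, adjusted p = 5.8e-11). The plot of all gene lists sets these counts side by side.

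**Figure D3:**
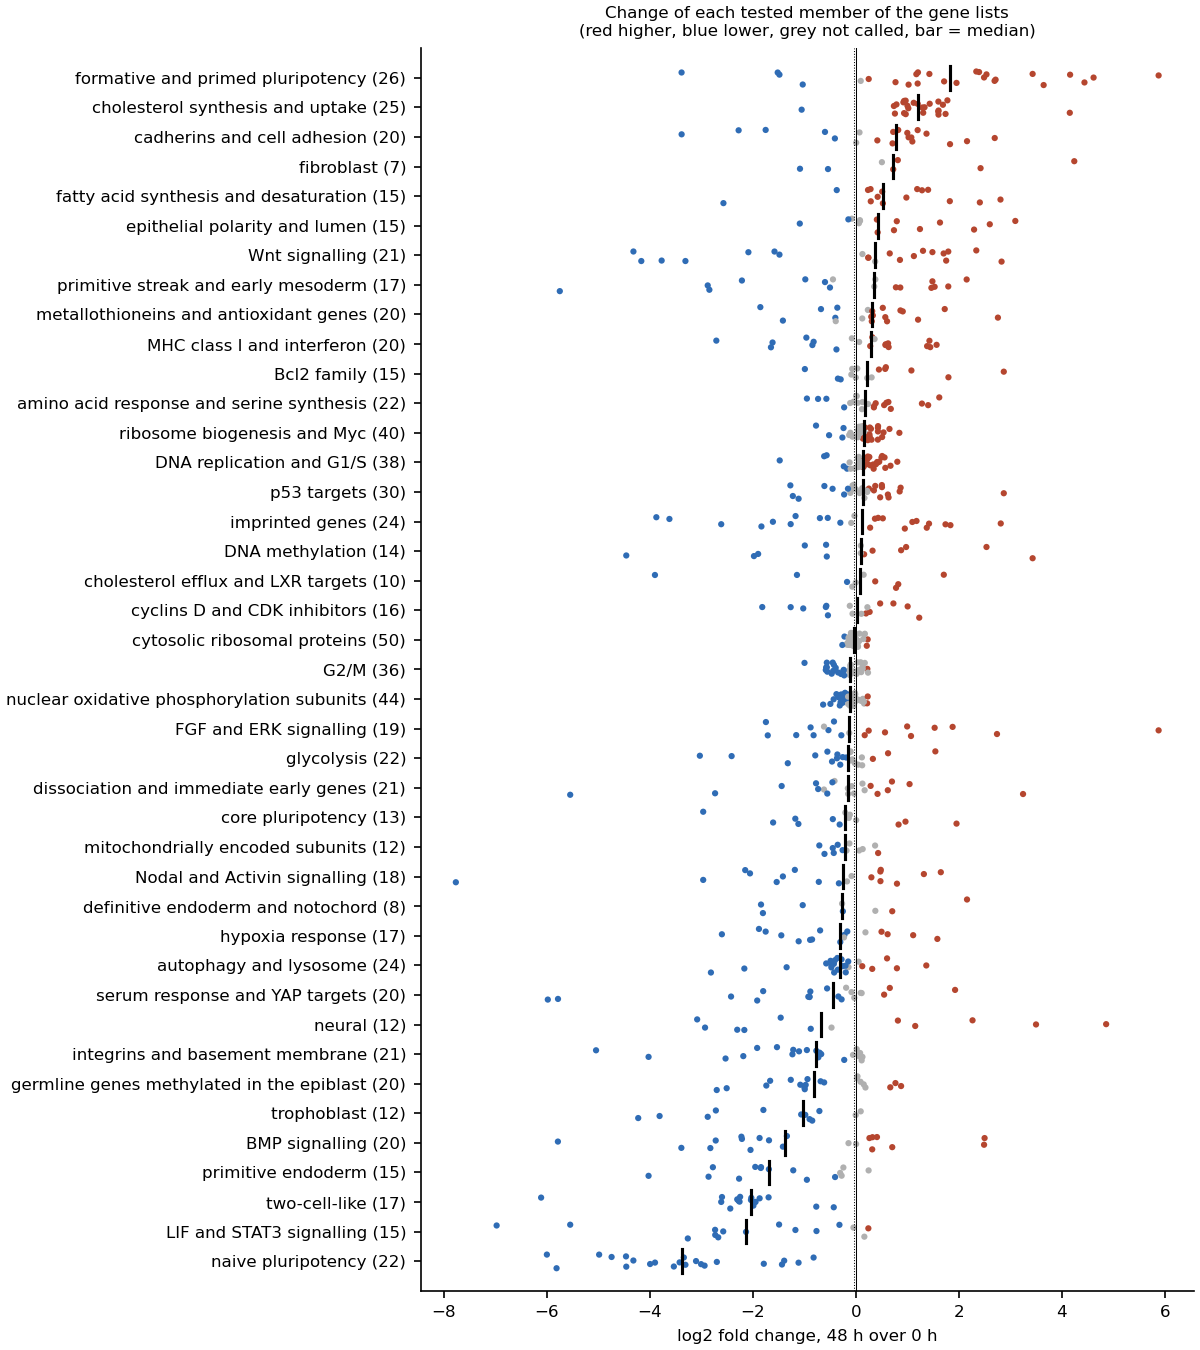
Log2 fold change of 48 h over 0 h of every tested gene of each list, with the number tested in parentheses, red for higher, blue for lower and grey for not called, a bar at the list's median and a dotted line at the median of all genes. The naive pluripotency list lay lowest, with a median of -3.38, and the formative and primed list highest, with 1.83.

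Among the 10 largest falls of well expressed genes were also Mras, Ak7, Jam2, Msc and Calcoco2. Mras, a Ras-family GTPase, was at 4266 (3576 to 5283) at 0 h and 17.2 (13.9 to 28.4) at 48 h (-7.75 ± 0.15, adjusted p = 6.6e-16), and the junction gene Jam2 at 19343 (15907 to 19855) at 0 h and 224 (112 to 369.8) at 48 h (-6.40 ± 0.19, adjusted p = 6.1e-14). Ak7, an adenylate kinase, fell from 1886 (1189 to 2598) to 19.23 (17.6 to 19.9), and the bHLH repressor Msc from 1007 (804 to 1678) to 19.8 (5.89 to 21.1). Calcoco2, an autophagy receptor, was at 8977 (6057 to 12402) at 0 h and 123 (88.9 to 167) at 48 h (-6.11 ± 0.14, adjusted p = 5.0e-15). The largest rises included Enpp2, the enzyme autotaxin that makes lysophosphatidic acid, at 115 (90.1 to 161) at 0 h and 9356 (9031 to 9586) at 48 h (6.27 ± 0.11, adjusted p = 1.3e-16), and the chemokine Cxcl12, at 64.1 (52.2 to 80.5) at 0 h and 3685 (3487 to 3979) at 48 h (5.83 ± 0.09, adjusted p = 6.3e-17). Zfp608 rose from 97.9 (61.7 to 141) to 3100.4 (2921 to 3289.6), the transcription regulator Vrtn from 212 (152 to 251) to 6326 (5892 to 6609.7) and the semaphorin Sema6a from 114 (66.4 to 191) to 2781 (2559.9 to 3118). The protocadherin Pcdh1 rose from 369 (302 to 490.2) to 8082 (7947 to 8447) (4.45 ± 0.10, adjusted p = 2.6e-15), and Galnt3, an enzyme of O-glycosylation, from 103 (75.2 to 117) to 1783 (1639.8 to 1939.8) (4.17 ± 0.10, adjusted p = 5.7e-15). In each of these genes all 6 libraries of one time point exceeded those of the other, which the rule for the largest changes required. It was likewise required of Klf4, Prdm14, Id1, Bcl3, Inhbb, Fgf5, Pou3f1 and Sall2, which belong to the same set.

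The clones were then compared by a clone by time interaction, which asks whether the change from 0 h to 48 h differed between WT-emiRFP and WT-mCherry. It did for 477 genes (2.57%), with 157 more positive and 320 more negative in WT-emiRFP. Of these, 290 moved in one direction and passed in both clones, and 32 passed in opposite directions. Across genes the log2 fold changes of the clones had a Pearson correlation of 0.926, where genes are not independent replicates. The number of calls depended on replicate 2, since leaving it out gave 0 and leaving out replicates 1 and 3 gave 221 and 34. With an unadjusted p under 0.05 there were 3182 genes with all replicates and 1511 without replicate 2, both by edgeR. With the replicate number as a block 963 genes were called, and 1473 with a block within each time point, where same-numbered libraries of the clones deviated together. Naive genes were among the calls: 10 of the 22 list members differed. In the order of replicates 1, 2 and 3, Tcl1, a coactivator of Akt, stood in WT-mCherry at 4479.5, 5237 and 5677 at 0 h and at 337, 292 and 324 at 48 h, and in WT-emiRFP at 7727, 8174 and 8116 and then 165, 186 and 157 (difference -1.55 ± 0.14, adjusted p = 1.9e-04). Prdm14 stood at 48 h at 41.1, 47.3 and 43.3 in WT-mCherry and at 18.8, 16.6 and 16.2 in WT-emiRFP (difference -1.49 ± 0.17, adjusted p = 8.3e-04). The changes of Eprn were -3.49 in WT-mCherry and -5.01 in WT-emiRFP. The fall was deeper in WT-emiRFP in each of these genes, and the plot of the clones' changes shows the whole set.

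**Figure D4:**
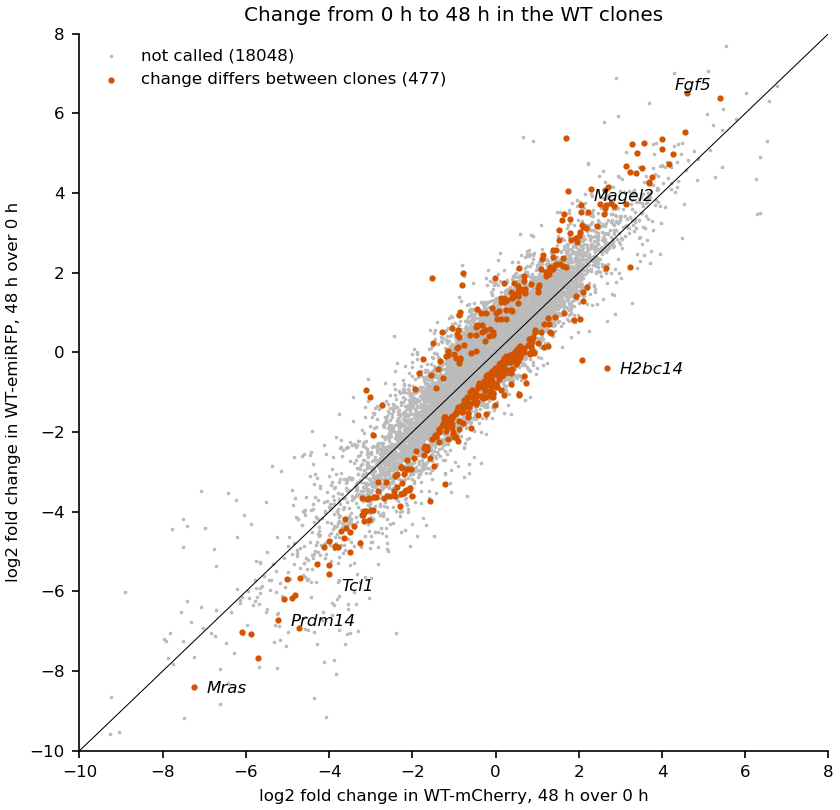
Log2 fold change of 48 h over 0 h in WT-mCherry (horizontal axis) and WT-emiRFP (vertical axis) for each tested gene, with genes whose change differed between clones in orange and the line of equal change. Most genes follow the line, with a correlation of 0.926, and Prdm14 and Tcl1 lie below it.

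Levels that separated the clones at both times were sought among imprinted genes and H2B genes, a choice made after their values were seen. Of the 24 imprinted genes tested, 5 (20.8%) differed at least 4-fold with no overlap at 0 h and 48 h in one direction, and 15 of 18525 genes (0.081%) did. Mest, a paternally expressed gene, stood in WT-mCherry at 7367, 7368 and 7342 at 0 h and at 9149, 8691 and 8933 at 48 h, and in WT-emiRFP at 330.5, 440.0 and 363 and then 623, 599.8 and 517. H19 stood in WT-mCherry at 19315, 15358 and 16511 at 0 h and at 1315, 1253 and 1104 at 48 h, and in WT-emiRFP at 1847, 1714 and 1575 and then 117, 146 and 60.0. Grb10, an adaptor of receptor kinases, went the other way: it stood in WT-mCherry at 1768, 1650.4 and 1578 at 0 h and at 2538, 2500.3 and 3100.2 at 48 h, and in WT-emiRFP at 6545, 9317 and 9731 and then 10251, 10437 and 12033. Plagl1 and Nnat were higher in WT-mCherry at both times. These levels belong to single clones, and whether allelic silencing differs was not tested. H2bc14, a gene for H2B, stood in WT-mCherry at 7.32, 8.21 and 6.204 at 0 h and at 64.6, 49.2 and 32.5 at 48 h, and in WT-emiRFP at 10517, 9952 and 9353 and then 8948, 7829 and 6080.5. H2bc7 stood in WT-mCherry at 14.6, 21.1 and 10.3 at 0 h and at 47.0, 30.3 and 20.7 at 48 h, and in WT-emiRFP at 5285, 4742 and 4485 and then 4452, 3592 and 2999. The H2bc14 level of WT-mCherry was 0.066% to 0.083% of that of WT-emiRFP at 0 h and 0.53% to 0.72% at 48 h. For H2bc7 these shares were 0.231% to 0.445% and 0.689% to 1.06%. For H2bc21, another H2B gene, they were 1.29% to 5.87% and 2.89% to 5.98%, so the times overlapped. The counts of these H2B genes may hold reads of the H2B reporter of WT-emiRFP, which was not tested, so they are not read as levels of the histone genes. Whether the shares mark RNA of the other clone in the sorted WT-mCherry libraries was not tested.

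**Figure D5:**
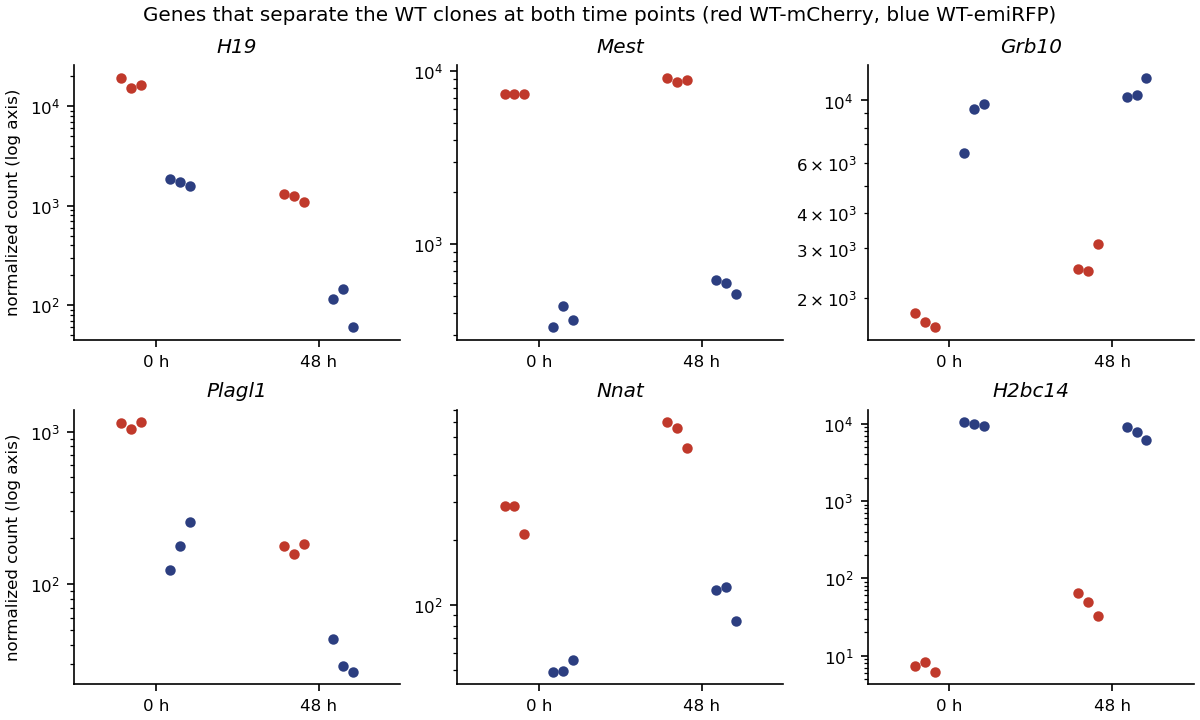
Normalized counts (log axis) of 5 imprinted genes and H2bc14 in each WT library at 0 h and 48 h, WT-mCherry in red and WT-emiRFP in blue. H19, Mest, Plagl1 and Nnat were higher in WT-mCherry at both times, and Grb10 and H2bc14 were higher in WT-emiRFP.

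p53KO-emiRFP cells, a subclone of WT-emiRFP with a frameshift in exon 4 of Trp53, were sorted from WT+p53KO gastruloids, where they grew with WT-mCherry cells. These gastruloids were started from 150 WT-mCherry and 25 p53KO-emiRFP cells, and WT+WT gastruloids from 150 cells of each clone, so genotype, clone, seeding ratio and starting cell number cannot be told apart. In p53KO-emiRFP the targeted gene Trp53 stood at 2331, 2532 and 2589 at 0 h and then at 1773, 1904 and 1761, and in WT-emiRFP at 27511, 25304 and 23677 and then 15255, 16714 and 15839. The change from 0 h to 48 h differed between p53KO-emiRFP and WT-emiRFP for 471 of 18580 genes tested (2.53%), with 201 more positive and 270 more negative. Leaving out replicate 2 gave 4 calls, of Cdkn1a, Inpp5d, Sulf2 and Kif1a, the last chosen by this count, so every other difference named below lost its call there, and leaving out replicate 1 gave 630 and replicate 3 gave 83, and with the replicate number as a block there were 687. This comparison uses the same WT-emiRFP libraries as the one above. Of the p53 targets, 10 of 30 differed, 9 of them more negative. Cdkn1a changed by -2.12 in p53KO-emiRFP and 0.60 in WT-emiRFP (difference -2.72 ± 0.21, adjusted p = 9.2e-06), and the kinase Plk2, a p53 target, by -1.48 and 0.95 (difference -2.43 ± 0.24, adjusted p = 1.5e-04). The lipid phosphatase Inpp5d changed by -3.16 and -0.56 (difference -2.60 ± 0.14, adjusted p = 1.8e-07), and the sulfatase Sulf2 by -3.17 and -0.90 (difference -2.27 ± 0.12, adjusted p = 1.8e-07). Myh13, a muscle myosin gene, changed by -3.43 and -5.31 (difference 1.88 ± 0.22, adjusted p = 4.1e-04). Among naive genes 9 of 22 differed and 0 were more negative. Klf4 changed by -5.73 in p53KO-emiRFP and -6.23 in WT-emiRFP.

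The 72 h WT+WT libraries, not used in the tests, place the 48 h values in time, since ChIR was added at 48 h. Fgf5 was at a median of 1941 at 72 h against 4108 (3802 to 4498) at 48 h, and Dnmt3b at 37001 against 188940 (181510 to 196890). T was at 45241 against 56.3 (46.4 to 68.1), and Eomes at 1062 against 370.0 (349.7 to 424). Klf4 was at 322 and Nanog at 12073 at 72 h, both above their 48 h values given with the naive genes. T, Eomes, Klf4 and Nanog were thus at a lower level at 48 h than at 72 h, and Dnmt3b and Fgf5 at a higher one.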

How the data were processed

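Bulk RNA was sequenced from 69 libraries, of which 12 were compared here, 3 per group. The authors trimmed reads with Trim Galore 0.6.7, aligned them with STAR 2.7.11b to GRCm38.p6 and deposited raw counts of uniquely mapped reads per gene symbol. All columns of the table matched samples by their labels. Counts were divided by median-of-ratios size factors from the whole table of 69 libraries. Low genes were removed with edgeR's filterByExpr by group, and tests used edgeR 4.0.16 (quasi-likelihood) in R 4.3.3, with clone as covariate or, for differences in change, a clone by time interaction. Adjustment followed Benjamini and Hochberg with a threshold of 0.05. Standard errors were taken from the F statistic. DESeq2 1.42.0, pandas 2.3.3 and matplotlib 3.10.9 were used for alternatives and plots.

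Replicates are described as separate experiments. After subtraction of the group mean, libraries of both clones with one number correlated within a time point (0.206 to 0.508 across 13791 genes). P-values treat the 12 libraries as independent although the clones of one number at 48 h shared gastruloids, and the alternative that sums them is given in the closing section. The naming rule covered the 10 largest rises and the 10 largest falls that do not overlap, up to 4 changed and 2 highest members of each list, a fixed set of pluripotency, signalling and p53 genes, the 5 largest of each difference, and genes with a promoter match. Without the last, it chose 243 genes, of which the text describes 141, picked with their values known. Other names were chosen after their values were seen and are T, Nkx1-2, H2bc21, Kif1a, Ebp, Acss2, Thrsp, Mest, Nnat, Grb10, Mesp1, Tpbpa and Fap. The libraries were taken by their labels, but this set of members and the lists were chosen with earlier results of these data known. In simulated data with 200 genes changed 2-fold, the test of 48 h against 0 h recovered 80.5% and 7.47% of what it called had not been changed, and the clone by time test recovered 56.5%. The simulation drew 12 independent libraries and left most of its 18156 genes unchanged. In the data 67.3% of genes were called and clones shared gastruloids at 48 h, so these rates do not carry over. Promoter sequences are from RefSeq on GRCm38.p6. Intervals and floors were not computed, and the spread is that between libraries.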

Additional observations from a re-analysis of the deposited data

Results flagged for a closer look

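The change from 0 h to 48 h differed between the WT clones for 477 genes by an interaction test, and between p53KO-emiRFP and WT-emiRFP cells for 471. Both rest on WT-emiRFP libraries, so the values below are not independent of each other, and each value is the difference of the log2 fold changes. Groups of 3 libraries were not searched gene by gene for outlying libraries.

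Among the genes named above, those whose change was more negative in WT-emiRFP than in WT-mCherry were H2bc14 (-3.06), Tcl1 (-1.55), Eprn (-1.52), Prdm14 (-1.49), Pax6 (-1.38), Jam2 (-1.21), Mras (-1.14), Myh13 (-1.01), Apoe (-0.97), Ak7 (-0.93), Esrrb (-0.82), Lefty2 (-0.79), Hormad1 (-0.72), Zfp42 (-0.57), Nanog (-0.45), Slc2a3 (-0.43) and Mybl2 (-0.38). Most of them fell in both clones. The counts of H2bc14 may hold reads of the H2B reporter, which was not tested. More positive in WT-emiRFP were Magel2 (1.64), Sema6a (1.35), Wnt8a (1.31), Fgf5 (0.99), Zfp608 (0.98), Pou3f1 (0.72) and Pcdh1 (0.57). The pluripotency genes Tcl1, Prdm14, Esrrb, Zfp42, Nanog and Mybl2 thus fell further in WT-emiRFP, and the formative genes Fgf5 and Pou3f1 rose further. Without replicate 2 no gene passed this test.

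For p53KO-emiRFP against WT-emiRFP, the change was more negative for Cdkn1a (-2.72), Inpp5d (-2.60), Plk2 (-2.43), Sulf2 (-2.27), Sema6a (-1.39), Fgf5 (-1.35), Enpp2 (-1.32), Zfp608 (-1.28), Wnt8a (-1.21), Pcdh1 (-1.14), Perp (-1.13), Cxcl12 (-1.08), Otx2 (-1.04), Cldn7 (-0.94), Lefty2 (-0.81), Cldn6 (-0.75), Pou3f1 (-0.72) and Podxl (-0.55). Cdkn1a, Plk2 and Perp are targets of p53. It was more positive for Myh13 (1.88), Eprn (1.82), Mras (1.74), Calcoco2 (1.32), Ak7 (1.29), Pdgfra (1.25), Prdm14 (1.04), Tcl1 (0.87), Bmp4 (0.73), Myc (0.72), Peg10 (0.67), Dnmt3l (0.65), Zfp42 (0.58), Pax6 (0.58), Klf4 (0.50) and Mycn (0.41). Among these, Prdm14, Tcl1, Klf4 and Zfp42 are naive genes that fell less in p53KO-emiRFP, and Fgf5, Otx2 and Pou3f1 in the first set are formative genes that rose less. Without replicate 2 only 3 of these differences passed the test, those of Cdkn1a, Inpp5d and Sulf2, so the differences of the naive and formative genes did not.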

How the results depend on the processing

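With replicate numbers as a block, 6069 genes were higher and 6681 lower, against 5884 and 6578 without it, and 12406 of the 12462 calls were found again in the same direction. Deviations of same-numbered libraries correlated at -0.135 to 0.369 between 0 h and 48 h of one clone, and those of other numbers at -0.344 to 0.255. These ranges overlap, so they cannot settle whether the numbers pair the time points. TMM scaling, size factors of the 12 libraries, DESeq2, no filter on low counts, all 69 libraries, either clone alone, clones summed per number, the other WT-mCherry libraries, and leaving out each replicate kept both counts within 1.5 times. Without each replicate in turn they ranged from 4842 to 5748 higher and 5663 to 6421 lower. A test beyond 2-fold gave 1215 higher and 2156 lower. The added alternatives were chosen after seeing the data: without WT-mCherry replicate 3 at 0 h, 5887 were higher and 6661 lower, without WT-mCherry replicate 2 at 0 h, 5690 and 6542, and without WT-emiRFP replicate 1 at 0 h, 6174 and 6920.

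The difference between the WT clones called 477 genes, 950 without the filter, 963 with the block, 1067 by DESeq2, 0 beyond 2-fold (174 at an unadjusted p under 0.05), 1473 with a block within each time point, added after seeing the data, and 0 to 221 with a replicate left out. The difference between p53KO-emiRFP and WT-emiRFP called 471 genes, 851 without the filter, 687 with the block, 871 by DESeq2, 5 beyond 2-fold and 4 to 630 with a replicate left out.

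Of 159 genes named in the text, 110 kept direction and side of the threshold in every alternative of their change, and 65 of the alternatives lost a call and 12 gained one, mostly in the test beyond 2-fold. In the change from 0 h to 48 h, Nkx1-2, Trh, Etv5, Utp20 and Plk2 lost their call with a replicate left out. Without replicate 2 every call of a difference between the WT clones was lost, those of Tcl1, Prdm14, Eprn and H2bc14 among them. Of the 34 named genes that differed between p53KO-emiRFP and WT-emiRFP, 3 kept their call without replicate 2, Cdkn1a, Inpp5d and Sulf2, and 13 kept it without replicate 3. Reversals were few. H2bc14, not called, changed by 0.01142 with size factors of the 12 libraries, 0.0001126 without the filter, 1.00 by DESeq2, 1.146 with all 69 libraries and 2.684 in WT-mCherry alone, and by -0.2381 to 0.1337 with a replicate left out. H2bc7, not called, changed by 0.1857 by DESeq2, 0.2936 with all 69 libraries and 0.9994 in WT-mCherry alone. H2bc21, not called, changed by 0.04834 with all 69 libraries and 0.3012 in WT-mCherry alone. The gained calls were T without the filter (-0.4466, adjusted p = 0.02377 by edgeR), Bbc3 without the filter, without replicate 1 and in WT-emiRFP alone, Mybbp1a with all 69 libraries, H2bc14, H2bc7 and H2bc21 with clones summed, H2bc14 and H2bc7 in WT-emiRFP alone, and H2bc7 without replicate 1 and with the other WT-mCherry libraries. T changed by 0.401 in WT-emiRFP alone, by 0.3754 without WT-mCherry replicate 2 at 0 h, and by -0.8798 to 0.5511 with a replicate left out. Ltv1 changed by -0.01063 with the other WT-mCherry libraries and by -0.01732 to 0.08801 with 1 left out, and Wdr43 by -0.0339 to 0.09483. The causes were not tested. Transcripts over 8000 bases were higher in 40.1% and lower in 29.4% of 2617 genes, and those under 2000 bases in 19.3% and 36.8% of 4297. Without WT-emiRFP replicate 1 at 0 h these were 39.2% and 33.9%, and 21.5% and 36.5%.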
